A study of Mus musculus with 8 samples.

Results

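The genes described here are 9 factors of the ventral neural tube: the secreted signal Shh and the transcription factors Foxa1, Foxa2, Nkx2-2, Nkx2-9, Nkx6-1, Nkx6-2, Olig1 and Olig2. They were looked up by gene name among the non-control probes of the arrays, and all 9 were found, on 11 of 55664 probes. All 9 were among the 28939 genes tested, each represented by its brightest probe. The study measured RNA of C57BL/6 mouse embryos at E10.5 after conditional loss of Geminin, a protein that restrains replication licensing and contacts chromatin regulators. Spinal neural tube and the paraxial tissue beside it, which forms somites, vertebrae and muscle, were cut out separately with a laser. The 4 groups were mutant neural tube, wild-type neural tube, mutant paraxial tissue and wild-type paraxial tissue, with 2 arrays each. The 2 mutant embryos are labelled fl/fl; cre/o and the 2 other embryos are labelled wild type, so the labels give neither the promoter that drives cre nor a control that carries cre or the floxed allele alone. Each of the 4 embryos gave both tissues.

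In the vertebrate neural tube, Shh secreted by the notochord and later by the floor plate spreads dorsally and sets progenitor identity by its level and duration. Cells nearest the source become floor plate and carry Foxa2, Foxa1 and Shh itself. The next cells dorsally carry Nkx2-2 and Nkx2-9 and give rise to V3 interneurons. Those above carry Olig2 and Olig1 and give rise to motor neurons and later to oligodendrocytes. Nkx6-1 and Nkx6-2 are homeodomain repressors; Nkx6-1 spans the ventral progenitor domains. Outside the neural tube, Foxa1 and Foxa2 are also known in gut endoderm, and Shh and Foxa2 in notochord.

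Values are the scaled log2 signal of a 1-colour Agilent array: log2 of the processed red signal, set to a common 75th percentile. A difference of 1 is a doubling, and levels of different probes are not set against each other. The share of probes above background ranged from 71.5% to 77.9%, and both mutant arrays of a tissue had a lower share than both of its wild-type arrays. Gmnn, the targeted gene, read 12.11 and 11.80 in mutant neural tube, against 12.35 and 12.24 in wild-type neural tube. In paraxial tissue it read 11.42 and 11.39 in the mutants, against 12.20 and 11.88 in the wild-type embryos. All 4 mutant values lay below the wild-type values of their tissue, but neither difference passed the test (-0.35 ± 0.25 in neural tube and -0.63 ± 0.25 in paraxial tissue, log2 ± SE). Whether its probe lies in the deleted part is not given by the labels, so it does not settle the genotype. Of 11 measured paraxial mesoderm genes, 7 passed as lower in neural tube than in paraxial tissue in mutants, where 3.16% of all genes did, and 7 in wild type, where 1.68% did. In each genotype the precision rests on 2 embryos. Fewer cells of a type and less RNA per cell cannot be told apart in tissue pieces of this kind.

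Every probe is 60 bases long, and the array files place it on mouse build mm9. The start of the Shh probe, the signal at the top of the pathway, and those of the Nkx2-2 probes, which read different transcripts, are shown so that each value can be tied to its target. The first 30 bases of the Shh probe, the bright Nkx2-2 probe and the dim Nkx2-2 probe are as follows:
Shh, chr5:28783983-28784042, minus strand: aatttattattgtgtgaactgtactcacag
Nkx2-2, bright, chr2:147008949-147009008, minus strand: tttcaactatgaaaaaggaaaatatgtgta
Nkx2-2, dim, chr2:147003307-147003366, minus strand: cacaattgaagcatatatttccacctcttc

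Foxa2 was also read by a pair of probes, and their targets lie end to end on 1 transcript. They are shown because the size of the Foxa2 difference depended on which was read. The capitals mark the 5 bases that the probes share: they are the first of the brighter probe and the last of the dimmer one. The first 30 bases of the brighter probe and the last 30 of the dimmer probe are as follows:
Foxa2, brighter, chr2:147868614-147868673, minus strand: TGTTCtggctagaatggccagaattccaca
Foxa2, dimmer, chr2:147868669-147868728, minus strand: gctttatttatggcttataaatgtgTGTTC

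The other members had 1 probe each. On mm9 the Foxa1 probe lay at chr12:58641764-58641823 and the Nkx2-9 probe at chr12:57712410-57712469, both on the minus strand and 929.4 kb apart. The Nkx6-1 probe lay at chr5:102088319-102088378 and the Nkx6-2 probe at chr7:146767119-146767178, both on the minus strand. The Olig1 probe lay at chr16:91271799-91271858 and the Olig2 probe at chr16:91228470-91228529, both on the plus strand and 43.3 kb apart. Foxa2 and Nkx2-2 are neighbours in the same sense, with probes 859.7 kb apart on chromosome 2. The genes thus include 3 pairs that lie within a megabase of each other, while Shh and Nkx6-1 are far apart on chromosome 5.

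**Figure D1:**
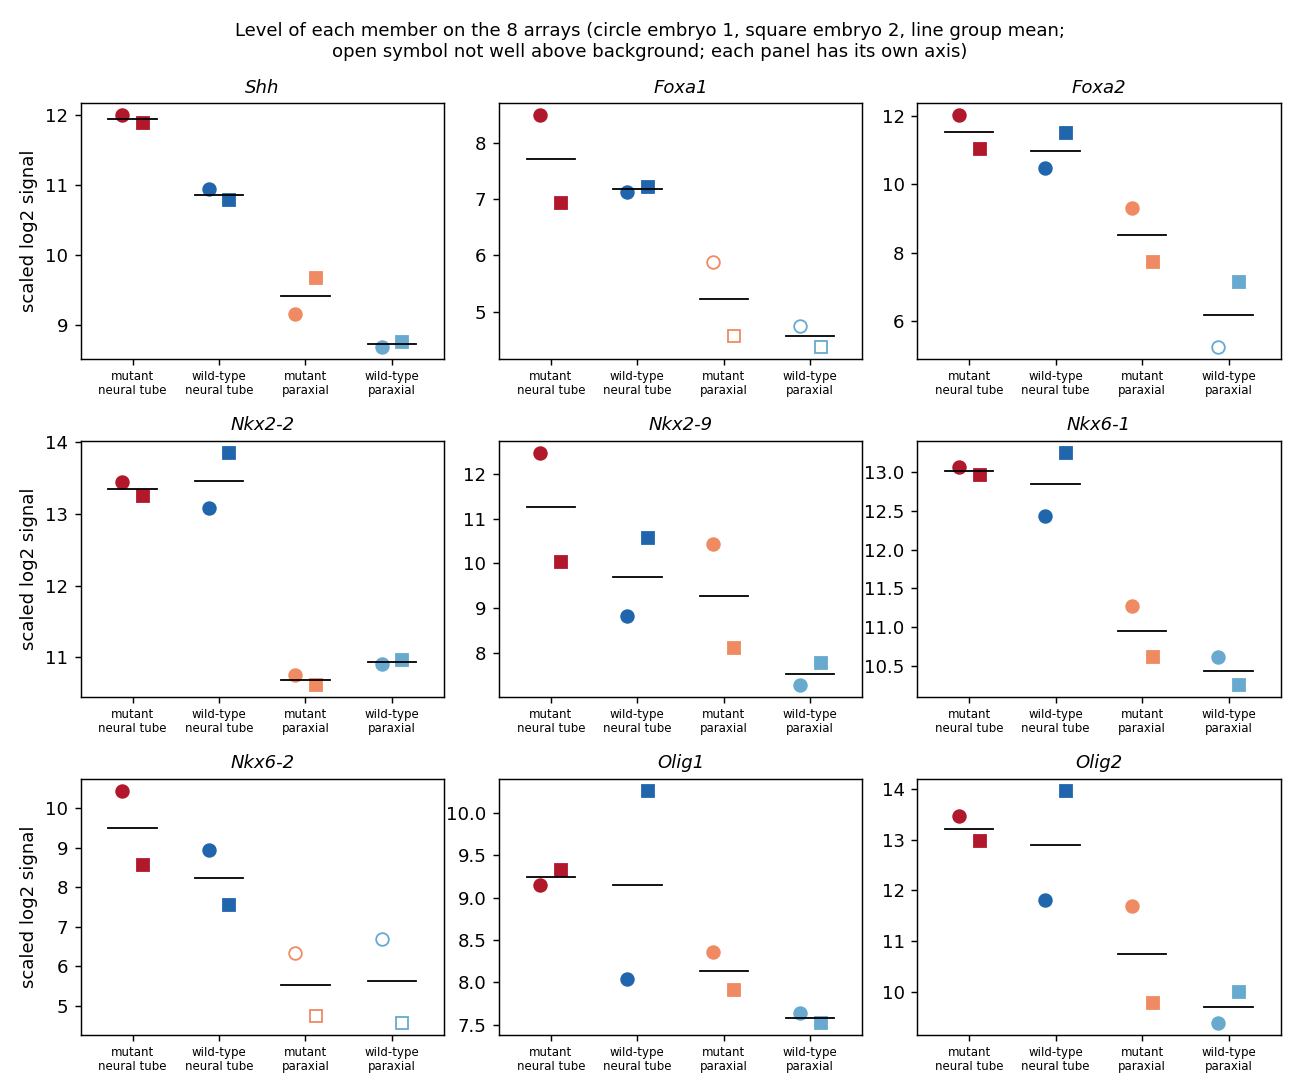
Scaled log2 signal of the 9 genes on the 8 arrays, with 1 panel per gene and its own axis, for mutant and wild-type neural tube and mutant and wild-type paraxial tissue. Points are single embryos, and open points were not well above background. All 9 genes had higher values in neural tube than in paraxial tissue of the same embryo.

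The first question was how the 9 genes divided between the tissues. Each was higher in neural tube than in paraxial tissue in all 4 embryos. A positive mean difference was found for 45.9% of all genes in mutants and 50.5% in wild type. The median difference within an embryo was 2.61 and 2.37 for the mutants and 2.25 and 2.89 for wild type, while the median of all genes was between -0.06 and 0.06. By limma across all genes, with embryo as a random block and a Benjamini-Hochberg adjusted p of 0.05, 7 of the 9 passed in mutants, where 2.67% of all genes passed upwards, and 6 of the 9 passed in wild type, where 0.771% did. Averaged over genotypes 8 passed, where 5.94% did. For 6 of the genes the tested probe was well above background on all 4 paraxial arrays too, and of these 4 passed in mutants, 4 in wild type and 5 on average. The tested Foxa2 probe was below background on 1 wild-type paraxial array. Foxa1 and Nkx6-2 were not well above background on any of the 4 paraxial arrays, so they passed the filter on dim probes through neural tube alone and had to differ. With the embryo left out of the model, 0 passed in either genotype and 5 on average. Leaving out any 1 mutant array left 0 to 2 of the 9 in mutants, and leaving out wild-type embryo 1 or 2 left 1 or 0 in wild type.

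Shh is the ligand that patterns the ventral tube. It read 12 and 11.88 in mutant neural tube, against 10.94 and 10.79 in wild-type neural tube, and 9.17 and 9.68 in mutant paraxial tissue, against 8.69 and 8.77 in wild-type paraxial tissue. These 4 groups do not overlap, and their order from highest to lowest is mutant neural tube, wild-type neural tube, mutant paraxial and wild-type paraxial. The neural tube excess was 2.52 ± 0.19 in mutants (adjusted p = 0.00941) and 2.13 ± 0.19 in wild type (adjusted p = 0.00964). Its probe was printed at 10 spots on each array, of which 7 to 10 were used, and the spots of an array differed by an SD of 0.09 to 0.12, which is technical spread only.

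Foxa2 is a forkhead factor that specifies floor plate. Its brighter probe read 12.02 and 11.04 in mutant neural tube, against 9.31 and 7.73 in mutant paraxial tissue. In wild type it read 10.46 and 11.5 in neural tube, against 5.24 and 7.13 in paraxial tissue. The 5.24 was not well above background, so the wild-type excess of 4.80 ± 0.44 (adjusted p = 0.00964) rests partly on a dim value. The mutant excess was 3.01 ± 0.44 (adjusted p = 0.0161). The dimmer probe, well above background on all 8 arrays, read 10.73 and 10.12 in mutant neural tube, against 8.72 and 8.11 in mutant paraxial tissue, and 9.44 and 10.17 in wild-type neural tube, against 7.67 and 8.02 in wild-type paraxial tissue. Tested on its own among all kept probes, it gave an excess of 2.01 ± 0.22 in mutants (adjusted p = 0.0119) and 1.96 ± 0.22 in wild type (adjusted p = 0.0133), so both probes gave a difference that passed, of unequal size.

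**Figure D2:**
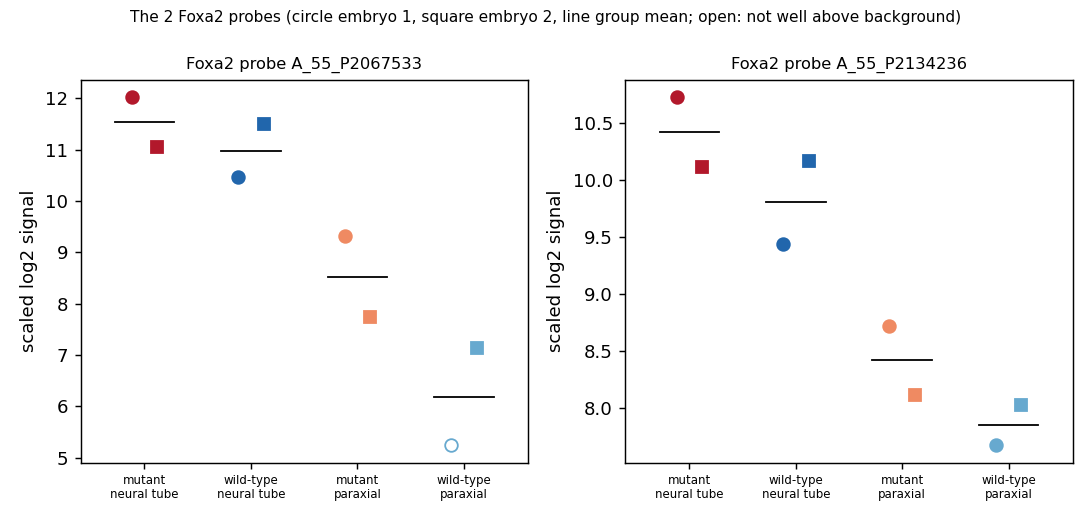
Scaled log2 signal of the brighter (left, A_55_P2067533) and the dimmer (right, A_55_P2134236) Foxa2 probe on the 8 arrays, in mutant and wild-type neural tube and paraxial tissue; each panel has its own axis and each point is an embryo. The brighter probe had 1 wild-type paraxial value of 5.24 that was not well above background, while the dimmer probe had values between 7.67 and 10.73.

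Foxa1, a related forkhead factor, read 8.49 and 6.92 in mutant neural tube, against 5.88 and 4.56 in mutant paraxial tissue, and 7.12 and 7.22 in wild-type neural tube, against 4.75 and 4.37 in wild-type paraxial tissue. The paraxial values were not well above background, so the difference is a bound on the group means. By the main processing, neural tube was higher by at least 1.61-fold in mutants and at least 1.4-fold in wild type. The bound itself was not tested. The limma adjusted p of 0.0135 in mutants and 0.0154 in wild type belongs to the signal difference, which includes the dim values. Foxa1 passed the filter on dim probes through neural tube alone. The bound takes, for each paraxial array, the higher of the gene's own signal and the lowest signal well above background. It is set against the mean of both neural tube arrays. In mutant embryo 2 the neural tube value of 6.92 barely passed that lowest paraxial signal, 6.91. The mutant bound thus rests on embryo 1. With normexp background correction in place of the processed signal the wild-type difference was 0.37 (adjusted p = 0.243), which did not pass. Over all alternatives the difference ran from 0.37 to 2.85 in wild type and from 0.66 to 2.94 in mutants. The bounds thus hold for the main processing only.

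Nkx2-2, which marks the progenitors next to the floor plate, read 13.45 and 13.25 in mutant neural tube, against 10.75 and 10.61 in mutant paraxial tissue. In wild type it read 13.08 and 13.85 in neural tube, against 10.90 and 10.96 in paraxial tissue. The excess was 2.67 ± 0.21 in mutants (adjusted p = 0.00941) and 2.53 ± 0.21 in wild type (adjusted p = 0.00716), so it passed in both. The dim Nkx2-2 probe, which reads another transcript of the gene, was well above background on 1 of 8 arrays, with 6.5 in the second wild-type neural tube, and was not tested.

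Its relative Nkx2-9 read 12.47 and 10.03 in mutant neural tube, against 10.44 and 8.10 in mutant paraxial tissue. In wild type it read 8.82 and 10.56 in neural tube, against 7.28 and 7.78 in paraxial tissue. The mutant groups overlap, because the second embryo's neural tube value lies below the first embryo's paraxial value, while within each embryo neural tube was higher, by 2.03 and 1.93 in mutants and 1.54 and 2.78 in wild type. The excess of 1.98 ± 0.57 in mutants (adjusted p = 0.102) and 2.16 ± 0.57 in wild type (adjusted p = 0.108) did not pass, but 2.07 ± 0.40 averaged over genotypes did (adjusted p = 0.0195).

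Nkx6-1, a homeodomain factor of several ventral progenitor domains, read 13.06 and 12.96 in mutant neural tube, against 11.28 and 10.62 in mutant paraxial tissue, and 12.43 and 13.24 in wild-type neural tube, against 10.62 and 10.26 in wild-type paraxial tissue. The excess of 2.06 ± 0.29 in mutants (adjusted p = 0.0155) and 2.40 ± 0.29 in wild type (adjusted p = 0.0154) passed. Nkx6-2 read 10.44 and 8.56 in mutant neural tube and 8.94 and 7.55 in wild-type neural tube. It was not well above background in paraxial tissue, at 6.33 and 4.73 in mutants and 6.69 and 4.56 in wild type. By the main processing its group mean was at least 5.57-fold higher in mutant neural tube and at least 2.93-fold higher in wild-type neural tube. These bounds were not tested. Over all alternatives the signal difference ran from 1.4 to 4.5 in mutants and from 0.79 to 3.13 in wild type. The bounds thus do not extend to every alternative. The signal difference, which includes the dim values, passed in mutants (adjusted p = 0.0135) and was missed in wild type (adjusted p = 0.0526). Nkx6-2 too passed the filter on dim probes through neural tube alone.

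Olig2, needed for motor neuron and oligodendrocyte formation, read 13.47 and 12.97 in mutant neural tube, against 11.70 and 9.78 in mutant paraxial tissue. In wild type it read 11.82 and 13.97 in neural tube, against 9.38 and 10.00 in paraxial tissue. It was higher in neural tube by 2.48 ± 0.54 in mutants (adjusted p = 0.0477) and 3.21 ± 0.54 in wild type (adjusted p = 0.0377). Its neighbour Olig1, a related basic helix-loop-helix factor, read 9.15 and 9.33 in mutant neural tube, against 8.36 and 7.91 in mutant paraxial tissue, and 8.04 and 10.26 in wild-type neural tube, against 7.64 and 7.52 in wild-type paraxial tissue. Its groups did not overlap between tissues in either genotype, but the excess of 1.11 ± 0.52 in mutants (adjusted p = 0.305), 1.57 ± 0.52 in wild type (adjusted p = 0.18) and 1.34 ± 0.37 on average (adjusted p = 0.0614) did not pass.

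**Figure D3:**
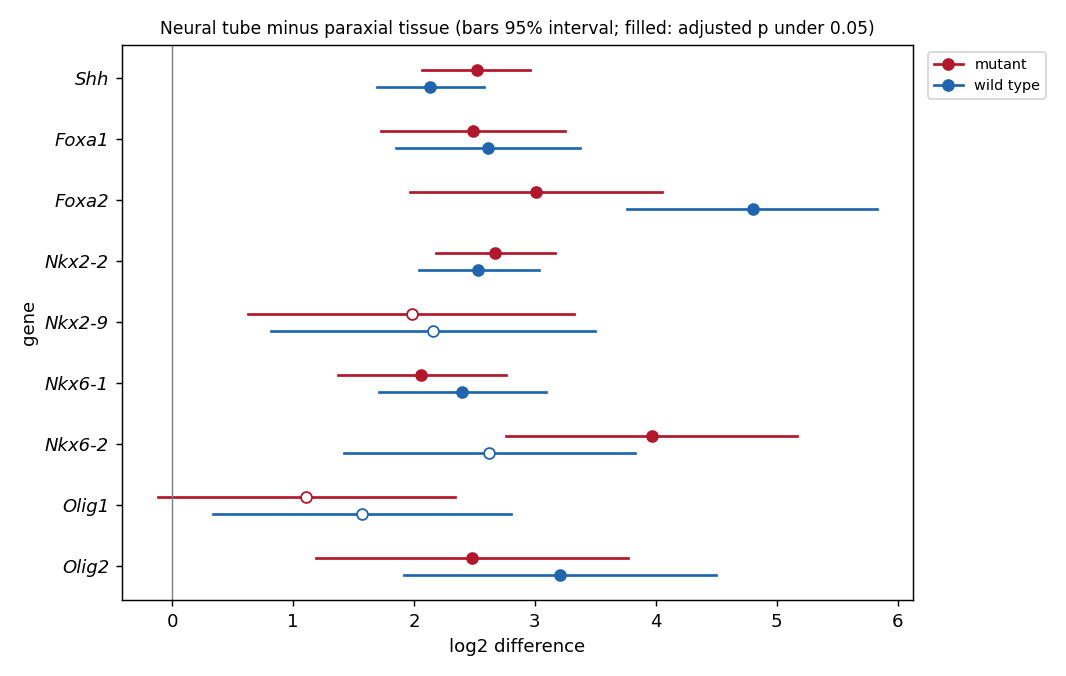
Neural tube minus paraxial tissue for each gene in mutants and in wild type, as the log2 difference with its 95% interval, filled where the adjusted p was under 0.05. All 9 lie above 0 in both genotypes, and the filled points are 7 in mutants and 6 in wild type; the Foxa1 and Nkx6-2 values rest on paraxial signals near background.

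All 9 genes had non-overlapping tissue groups in wild type, where 18.3% of all genes had such a higher neural tube, and 8 did in mutants, where 16.6% had; Nkx2-9 overlaps there. Other genes of the region were compared as lists. Of 11 other floor plate genes, 5 passed as higher in neural tube in mutants, where 2.67% of all genes did, and 2 in wild type, where 0.771% did. Slit1, an axon repellent, was higher by 1.41 ± 0.19 in mutants (adjusted p = 0.014) and 1.46 ± 0.19 in wild type (adjusted p = 0.0165). Ferd3l, a basic helix-loop-helix factor of the floor plate, was higher by 0.97 ± 0.14 in mutants (adjusted p = 0.0161) and 0.75 ± 0.14 in wild type (adjusted p = 0.0487). Not every gene of the list was higher: 10 of the 11 were in mutants and 9 in wild type. Ntn1 differed by 0.47 ± 0.31 in mutants and -0.45 ± 0.31 in wild type, and Sspo by -0.29 ± 0.18 and -0.01 ± 0.18. The median of the floor plate list was 0.97 in mutants and 1.08 in wild type, against 2.49 and 2.53 for the 9 genes. Of 14 hedgehog pathway genes, 11 were lower in neural tube than in paraxial tissue in each genotype, with a median of -0.18 in mutants and -0.22 in wild type. Only Scube2, which helps release Shh from cells, passed as higher in neural tube, by 1.09 ± 0.20 in mutants (adjusted p = 0.0291) and 1.07 ± 0.20 in wild type (adjusted p = 0.0478). Hhip, a membrane inhibitor of the ligand, differed by -0.96 ± 0.29 in mutants (adjusted p = 0.118) and -1.62 ± 0.29 in wild type (adjusted p = 0.0433). It passed as lower in wild type only, and the test of that difference between genotypes gave an adjusted p of 0.963.

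The second question was whether the loss of Geminin moved the 9 genes. None passed in neural tube or in paraxial tissue, and 0% of all genes did. Without adjustment, 3.63% of all genes were under a p of 0.05 in neural tube and 3.36% in paraxial tissue. In neural tube 8 of the 9 were higher in mutants, against 49.2% of all genes, with a median difference of 0.54 and a median of -0.01 for all genes. In paraxial tissue 7 of the 9 were higher, against 53.5% of all genes, with medians of 0.66 and 0.03. Each embryo gave both tissues, so the counts in the tissues are not independent. None of the genes passed the test of a genotype difference between tissues, where 0% of all genes passed and 5.17% were under an unadjusted p of 0.05.

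Among the 9, only Shh had neural tube values that did not overlap between genotypes; 16.5% of all genes had such a higher mutant group and 15.4% a lower one. Its mutant values of 12 and 11.88 were above the wild-type values of 10.94 and 10.79, by 1.07 ± 0.30 (95% interval 0.37 to 1.78; 2.1-fold; unadjusted p = 0.00873, adjusted p = 0.921). The paraxial difference was 0.69 ± 0.30 (unadjusted p = 0.0536). The difference ran between 0.88 and 1.26 in neural tube and between 0.40 and 0.97 in paraxial tissue over the alternative settings, with no adjusted p under 0.05. The transmembrane receptor Ptch1, induced by the pathway as its own inhibitor, read 13.82 and 13.52 in mutant neural tube, against 12.80 and 13.05 in wild-type neural tube, a difference of 0.74 ± 0.24 (unadjusted p = 0.0191, adjusted p = 0.921). Gli1, a transcriptional target and effector, read 13.09 and 11.68 in the mutants, against 10.43 and 12 in the wild-type embryos, a difference of 1.17 ± 0.64. The Gli1 values overlap, and those of Ptch1 do not. Over the list, 11 of 14 hedgehog pathway genes were higher in mutant neural tube, with a median of 0.33 and 0 passing, and 11 of 14 were higher in mutant paraxial tissue, with a median of 0.19 and 0 passing. Of 11 other floor plate genes, 6 were higher and 5 lower in mutant neural tube, with a median of 0 and 0 passing. In mutant paraxial tissue 5 of them were higher and 6 lower, with a median of -0.29 and 0 passing.

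Foxa2 gave the largest paraxial difference of the 9, 2.33 ± 0.69 (unadjusted p = 0.0123, adjusted p = 0.996), and it was the gene with the lowest p for a genotype effect that differed by tissue (-1.78 ± 0.62, unadjusted p = 0.0238, adjusted p = 0.932). Its dimmer probe did not carry either: 0.57 ± 0.35 in paraxial tissue, and 0.05 ± 0.31 for the tissue difference. In neural tube the brighter probe gave 0.55 ± 0.69 and the dimmer 0.62 ± 0.35. With 1 array or embryo left out, the brighter probe ran from 0.03 to 1.07 in neural tube and from 1.39 to 3.28 in paraxial tissue. In paraxial tissue, Foxa2 was 1 of 4 of the 9 genes with a non-overlapping higher mutant group (Shh, Foxa2, Nkx2-9 and Olig1), where 22.6% of all genes had one. Nkx2-2 was non-overlapping and lower there, where 14.7% of all genes were, by -0.25 ± 0.33.

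Some lists of genes of other cell types stood higher in mutant paraxial tissue, and the epithelial list did so in both tissues. Of 9 gut endoderm genes, 5 were measured and Gata4, Foxa3, Hnf4a and Hnf4g were not well above background; the mean of the 5 was 0.93 and 0.48 in mutant paraxial tissue, against -0.21 and -0.14 in wild-type paraxial tissue (log2 from each gene's mean over the arrays). The surface ectoderm and epithelial list, of which 10 of 11 were measured, read 1.26 and 0.58, against -0.58 and -0.21. Its genes Krt18 and Krt8, keratins of simple epithelia, were higher by 2.13 ± 0.48 and 2.47 ± 0.61 in mutant paraxial tissue, with unadjusted p of 0.00316 and 0.00488. In neural tube 9 of the 10 epithelial genes were also higher in mutants, with a median of 0.80 and 0 passing, and Krt18 and Krt8 differed by 1.17 ± 0.48 and 1.35 ± 0.61 there (unadjusted p = 0.0456 and 0.0628). The neural tube mean of the list was 0.32 and -0.18 in the mutants, against -0.64 and -0.55 in the wild-type embryos. Of 4 notochord genes, 3 were measured and Noto was not well above background. In paraxial tissue the mean of the 3 was -0.22 and -0.09 in the mutants, against -0.42 and -0.68 in the wild-type embryos. T, a notochord factor, read 8.43 and 8.82 there, against 7.69 and 7.36. Of the others, Chrd differed by -0.11 ± 0.33 and Nog by 0.20 ± 0.26 there. In neural tube the mean was 0.49 and 0.46 in the mutants, against -0.23 and 0.69 in the wild-type embryos. There T read 10.62 and 9.93, against 7.85 and 10.88. T was higher in neural tube than in paraxial tissue, by 1.65 ± 0.73 in mutants and 1.84 ± 0.73 in wild type. Neither of these differences passed. Of 11 endothelial and erythroid genes, all 11 were higher in mutant paraxial tissue with 0 passing, where 53.5% of all genes were higher. Their list mean there was 0.75 and 0.75 in the mutants, against -0.02 and 0.08 in the wild-type embryos. In neural tube 8 of the 11 were lower in mutants, with a median of -0.13. Of 11 measured paraxial mesoderm genes, 8 were lower in mutant paraxial tissue, with a median of -0.31. In mutant neural tube 7 of them were higher, with a median of 0.24. The part of any of these cell types in the Foxa2 and Shh values was not tested.

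For the progenitor genes the mutant differences were within or near the spread between embryos. Nkx2-2 differed by -0.11 ± 0.33 in neural tube (95% interval -0.89 to 0.67) and Nkx6-1 by 0.18 ± 0.46 (-0.92 to 1.28). Olig2 differed by 0.32 ± 0.86 in neural tube and 1.05 ± 0.86 in paraxial tissue, and Olig1 by 0.09 ± 0.82 and 0.55 ± 0.82. Nkx2-9 differed by 1.56 ± 0.90 in neural tube and 1.74 ± 0.90 in paraxial tissue, and Nkx6-2 by 1.25 ± 0.81 in neural tube. With 1 array or embryo left out, the Nkx2-9 difference ran from 0.34 to 2.78 in neural tube and from 0.57 to 2.92 in paraxial tissue, and that of Nkx6-2 in neural tube from 0.31 to 2.19. The Foxa1 difference was 0.54 ± 0.51 in neural tube. In paraxial tissue Foxa1 and Nkx6-2 were below background in both genotypes and no fold is given.

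**Figure D4:**
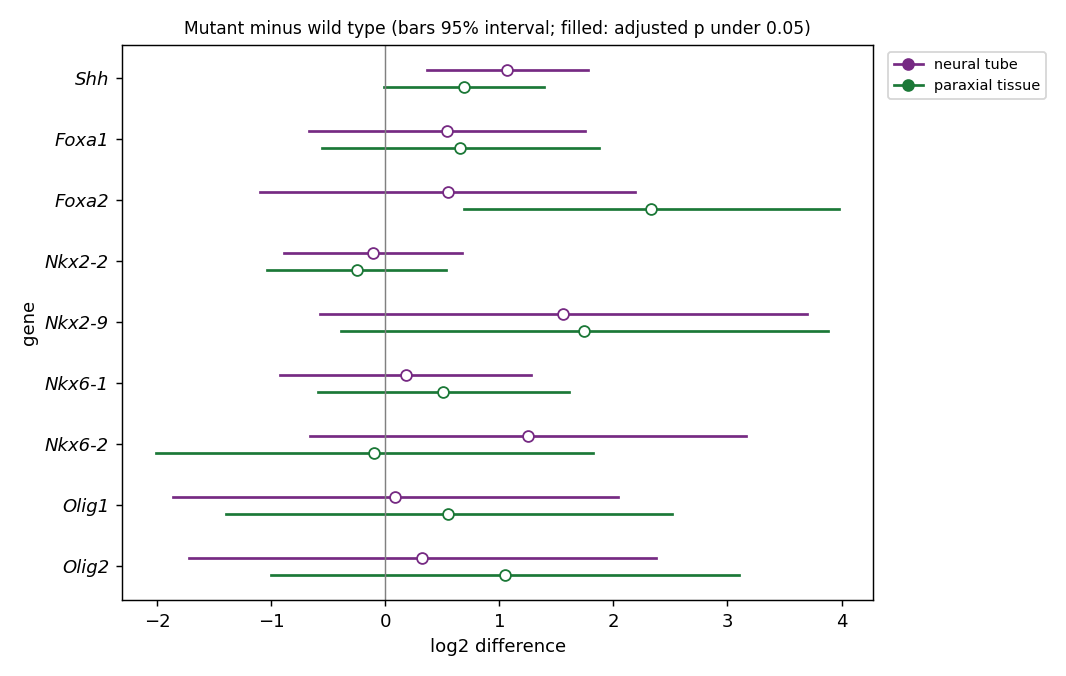
Mutant minus wild type for each gene in neural tube and in paraxial tissue, as the log2 difference with its 95% interval; open points had an adjusted p of 0.05 or more. No point is filled, and only the Shh interval in neural tube and the Foxa2 interval in paraxial tissue lie above 0; the paraxial values of Foxa1 and Nkx6-2 were near background in both groups.

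Embryos of 1 genotype differed from each other. For Nkx2-9, mutant embryo 1 exceeded mutant embryo 2 by 2.44 in neural tube and 2.34 in paraxial tissue. In neural tube it also exceeded it by 1.57 for Foxa1 and 1.88 for Nkx6-2, whose paraxial values were not well above background. For Olig2, wild-type embryo 1 minus embryo 2 was -2.15 in neural tube and -0.62 in paraxial tissue, and for Foxa2 it was -1.04 in neural tube. Shh differed little, by 0.12 and -0.51 in mutants and 0.15 and -0.08 in wild type. The replicate number is also the row of the slide, so embryo and row cannot be told apart. Neural tube arrays lay in columns 1 and 3 and paraxial arrays in columns 2 and 4, so tissue and column cannot be separated. Ventral neuron genes also varied: all 12 measured of 15 were lower in mutant neural tube, with a median of -0.75 and 0 passing. Of all genes, 49.2% were higher there. In mutant paraxial tissue 11 of the 12 were lower, with a median of -0.81 and 0 passing, where 53.5% of all genes were higher. In neural tube their list mean was -0.25 and 1.20 in the mutants, against 1.52 and 1.42 in the wild-type embryos. In paraxial tissue it was -1.08 and -1.71 in the mutants, against 0.10 and -1.20 in the wild-type embryos. The second wild-type embryo thus lay between the mutants there. The first mutant embryo had the lowest ventral neuron mean of the 4 neural tubes and the highest mean of the 9 genes, which was 2.01 and 1.17 in the mutants, against 0.58 and 1.39 in the wild-type embryos. Among the ventral neuron genes, Mnx1, a motor neuron factor, read 6.03 and 8.16 in the mutants, against 9 and 10.64 in the wild-type embryos (-2.73 ± 0.92, unadjusted p = 0.021, adjusted p = 0.921). The 6.03 was not well above background, so the size of this difference rests partly on a dim value.

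**Figure D5:**
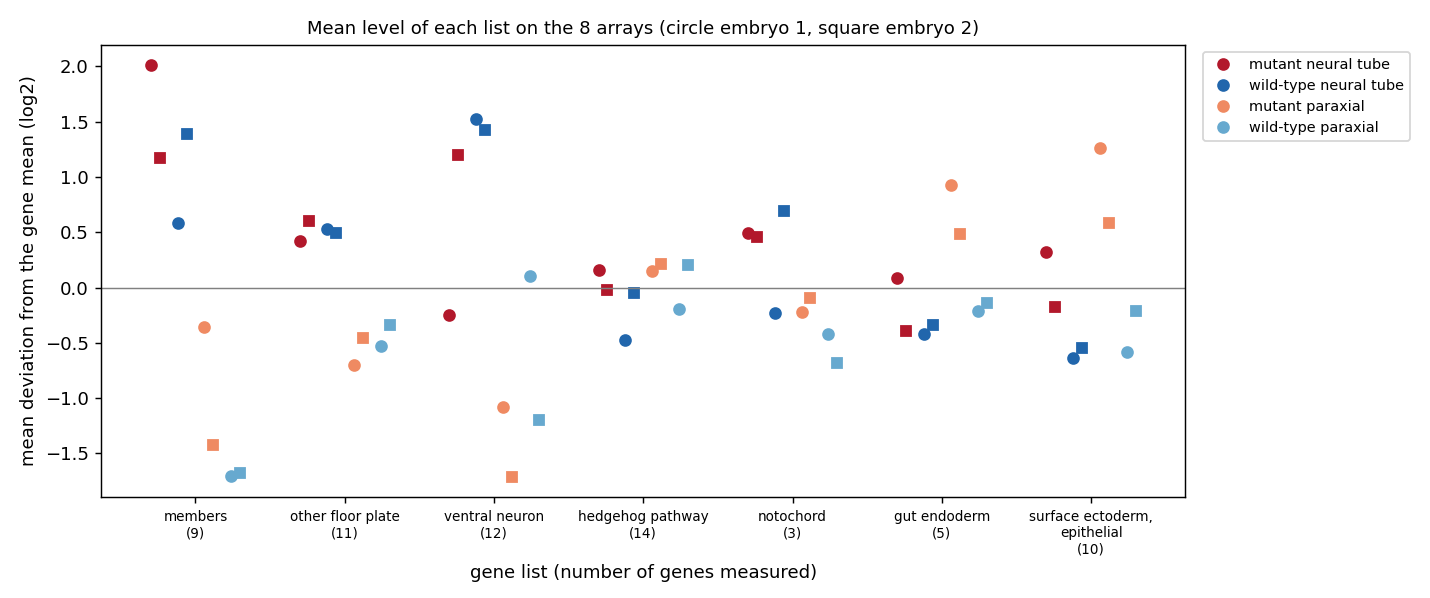
Mean deviation of the genes of each list from their own mean over the 8 arrays, in log2, for the 9 genes and 6 lists, by group and embryo (circle embryo 1, square embryo 2). The 9 genes lie above 0 on all 4 neural tube arrays and below 0 on all 4 paraxial arrays, and the gut endoderm and surface ectoderm lists are highest on the mutant paraxial arrays.

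The profiles over the 8 arrays were compared by the root mean square difference of centred log2 values. Among the 6 genes well above background on every array, the closest pair was Nkx2-2 and Nkx6-1, at 0.38, and the farthest Nkx2-2 and Nkx2-9, at 1.27. Of all genes, the closest to Shh was Mlc1 at 0.42, followed by a probe named only by its genome interval at 0.51 and by Nkx6-1, also at 0.51. Mlc1 read 9.20 and 9.43 in mutant neural tube, against 8.83 and 9 in wild-type neural tube, and 7.30 and 7.06 in mutant paraxial tissue, against 7.02 and 6.08 in wild-type paraxial tissue. Those closest to Foxa2 were Olig2 at 0.83, Hoxb1, a hindbrain homeodomain gene, at 0.85 and Foxa1 at 1.1. The tested Foxa2 probe was well above background on 7 arrays, Hoxb1 on 5 and Foxa1 on 4, so part of this likeness is between dim values. Wnt3a, a roof plate signal, was closest to Nkx2-2 at 0.28 and to Olig2 at 0.60. Wnt3a was well above background on 3 of the 8 arrays, all neural tube, and its other values are dim.

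Promoters of 250 bases before to 50 bases after the start were held for 7 of the 9 genes, as 9 promoters, Foxa2 having 3, from RefSeq on GRCm38.p6; Shh and Olig1 are not among them. The motifs searched on both strands were TGGGTGGTC for GLI factors, TGTTTAC for forkhead factors and TATAAA. Of the 9 promoters, 0 held TGGGTGGTC, 1 held TGTTTAC and 2 held TATAAA, whereas of all 32851 promoters 0.253%, 3.65% and 13.6% did. None of the motifs overlaps another in these promoters. The Foxa1 and Olig2 promoters are shown because they hold a forkhead motif and a TATA motif. The capitals mark the motif, which in Foxa1 reads on the opposite strand and starts 141 bases before the start and in Olig2 starts 8 bases before it. A match is a description of letters, and no match says only that the letters are not in this window.
Foxa1, chr12:57546062-57546361, minus strand: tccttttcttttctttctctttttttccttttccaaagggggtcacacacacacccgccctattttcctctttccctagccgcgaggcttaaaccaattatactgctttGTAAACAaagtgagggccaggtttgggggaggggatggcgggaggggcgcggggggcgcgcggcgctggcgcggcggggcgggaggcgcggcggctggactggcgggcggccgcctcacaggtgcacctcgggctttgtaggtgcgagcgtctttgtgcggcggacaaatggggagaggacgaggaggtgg
Olig2, chr16:91225300-91225599, plus strand: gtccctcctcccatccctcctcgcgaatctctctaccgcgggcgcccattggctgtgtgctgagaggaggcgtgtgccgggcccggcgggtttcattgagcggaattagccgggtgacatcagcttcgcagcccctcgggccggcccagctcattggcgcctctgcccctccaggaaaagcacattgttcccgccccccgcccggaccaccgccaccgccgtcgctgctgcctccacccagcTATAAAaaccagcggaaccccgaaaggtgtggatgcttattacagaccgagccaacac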

How the data were processed

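RNA from laser-captured neural tube and paraxial tissue was labelled with Cy5 and hybridised to 1-colour Agilent arrays, 1 per sample. The deposited intensity values are linear processed red signals, made by the authors with Agilent Feature Extraction 11.0.1.1 per the submitters' processing notes, and the array design is annotated on mm9 per the file headers. The authors' series-wide value list differs from them by at most 0.497%, and served as an alternative. Control spots (3671 of 62976 on an array) were removed, and 0 others were saturated.

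Intensities were put on the log2 scale after scaling each deposited array to a common 75th percentile. A probe was kept where some group had both of its arrays well above background, which left 42752 of 55664. The brightest kept probe stood for a gene (28939 genes, of which 7939 had more than 1), and names came through RefSeq accession (26045 probes) or symbol (3200); the other 26419 have the file's name. limma 3.58.1 in R 4.3.3 (with the package data.table in version 1.17.8) fitted the 4 group means, treating the embryo as a random block (correlation 0.603; degrees of freedom 4 residual, 2.93 prior), with eBayes and Benjamini-Hochberg adjustment at 0.05 over all genes. Standard errors, 95% intervals and p-values in the text are limma's, and they rest on 2 embryos per genotype.

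The source labels name the embryo of each array, so both tissues of an embryo were paired: their deviations from the group means correlated across genes (r = 0.607 in mutants and 0.562 in wild type). In the main model, replicate numbers were not taken to pair a mutant with a wild-type embryo. The alternative with a fixed block did give the replicate number a term in the genotype comparisons. All 8 arrays lay on 1 slide and in 1 scan. Where every array of a group was near background, only a bound is given. The genes named are the 9 in every comparison with every probe, Gmnn, up to 4 genes of each list by smallest p, and for 5 of them the 3 closest profiles; the 12 lists hold 122 genes. The members, lists, tests and alternatives were chosen with earlier results of these data known. Alternatives were 3 other scalings, normexp background correction (offset 50), 2 filters, the mean over a gene's probes, no block, a fixed block, trend and robust moderation, the authors' value list, and leaving out each array or embryo. Testing each kept probe on its own was added after the data were seen. The code was tested on simulated arrays of 28939 genes. Exon and untranslated region of the probes are not given, because no mm9 annotation was used here.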

Additional observations from a re-analysis of the deposited data

How the results depend on the processing

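The 0 passing genes of both genotype comparisons and of their difference between tissues stayed at 0 in each of the 24 alternatives. The tissue comparison depended on the model of the embryo: with no replicate block, 0 of the 9 genes passed in mutants, 0 in wild type and 5 on average, and with the replicate block as a fixed term 2 passed in wild type. Without 1 array or embryo the count was 0 to 9 in mutants, 0 to 8 in wild type and 6 to 9 on average. In mutants it was 0 without the neural tube array of embryo 1 or of embryo 2, 2 without the paraxial array of embryo 1, 1 without that of embryo 2, and 0 without mutant embryo 1 or 2. In wild type it was 1 without wild-type embryo 1, 0 without wild-type embryo 2, and 4 or more in the other left-out fits. Without an embryo the consensus correlation cannot be estimated, so that of all 8 arrays was used.

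Of 1236 alternative values of single genes, 1070 kept direction and side of the threshold, 99 lost and 20 gained the threshold, and 47 changed sign. Signs turned, without any value passing, for Nkx6-2 in paraxial tissue (0.11 with quantile scaling, 0.36 with normexp) and, in the difference of genotype effects between tissues, for Foxa1 (0.23 with quantile scaling, 0.30 with normexp), Nkx2-2 (-0.02 with quantile scaling), Nkx2-9 (0.31 with normexp) and Foxa2 (0.05 with only probes above background on all 8 arrays, and 0.05 for its dimmer probe). Over the left-out fits the mutant minus wild-type difference in neural tube ran from -1.07 to 1.25 for Olig1, -0.36 to 0.72 for Nkx6-1, -0.75 to 1.40 for Olig2, -0.50 to 0.27 for Nkx2-2 and -0.25 to 1.32 for Foxa1. In paraxial tissue it ran from -1.16 to 0.97 for Nkx6-2, -0.54 to 0.03 for Nkx2-2, -0.39 to 1.5 for Olig1 and 0.00 to 1.32 for Foxa1. For the difference between tissues it ran from -0.57 to 0.32 for Foxa1, -0.86 to 0.49 for Nkx2-9, -0.22 to 0.51 for Nkx2-2, -0.92 to 0.25 for Nkx6-1, -1.64 to 0.71 for Olig1 and -1.57 to 0.11 for Olig2. The paraxial values of Foxa1 and Nkx6-2 were below background on every array, so their signs and ranges in paraxial tissue, and in the difference between tissues, measure dim signal. Apart from the alternatives' own construction, the cause was not tested. Median scaling moved the median of all genes in paraxial tissue to 0.12. Signal over background limits Foxa1, Nkx6-2 and the brighter Foxa2 probe in paraxial tissue.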

Other observations

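Other regions of the neural tube also divided between the tissues; 2.67% of all genes passed as higher in neural tube in mutants and 0.771% in wild type, and whether the lists differ between genotypes was not tested. Of 6 intermediate progenitor genes, 3 passed as higher in neural tube in mutants and 1 in wild type. Pax6, a homeodomain factor of intermediate progenitors, was higher by 2.99 ± 0.43 in mutants (limma adjusted p = 0.0158) and by 2.05 ± 0.43 in wild type (adjusted p = 0.062). Of 11 dorsal and roof plate genes, 4 passed as higher in mutants and 1 in wild type. The 1 in wild type was Wnt3a, which also passed in mutants. It was not well above background on any paraxial array. Wnt3a passed the filter on dim probes through mutant neural tube alone, so it had to be higher there. Of 10 neural progenitor genes, 8 passed in mutants and 0 in wild type (all 10 had an unadjusted p under 0.05 there), with Sox1 higher by 1.69 ± 0.25 in mutants (adjusted p = 0.0161) and 1.13 ± 0.25 in wild type (adjusted p = 0.0677). Of 7 neuron genes, 1 passed in mutants and 0 in wild type, where 3 had an unadjusted p under 0.05. The paraxial array of wild-type embryo 1 stood apart for these: the neuron list mean in paraxial tissue was -1.19 and -0.97 in the mutants, against 0.62 and -0.90 in wild type, and the ventral neuron mean was -1.08 and -1.71 in the mutants, against 0.10 and -1.20 in wild type. Its part in these counts was not tested. No gene of these lists passed between genotypes in either tissue. Pax7, a dorsal factor, had non-overlapping groups in paraxial tissue, with a mutant minus wild-type difference of -1.64 ± 0.54 (unadjusted p = 0.019, adjusted p = 0.996).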
